A study of Mus musculus with 10 samples.

Results

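Milk IgA transport and plasma cell homing was described here by 8 genes of the lactating mouse mammary gland, chosen by symbol and found in 8 of the 35275 rows of the deposited expression table. They were the antibody genes Igha and Jchain with the plasma cell gene Mzb1, the antibody transporters Pigr and Fcgrt, the homing signals Ccl28 and Madcam1, and the survival factor gene Tnfsf13b. The glands were those of BALB/c mice, an inbred strain, on lactation day 3, and each received 50 µL through the teat canal. In the LPS group this held lipopolysaccharide, the endotoxin of E. coli, at 0.4 mg/mL, and in the PBS group sterile phosphate-buffered saline. The fourth pair of glands was used, left and right sides alternating between the 2 agents, and each gland was collected by itself after 12 h. The 10 libraries, 5 per agent, held 15734303 to 18869545 counted reads each. The labels give n = 9 and do not say which animals the 10 libraries came from, so the p-values here rest on the spread among libraries, which may be partly technical. All 10 glands had been injected.

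In the lactating gland, plasma cells that secrete IgA settle beside the milk-producing epithelium. The chemokine CCL28, made by epithelium, draws cells with the receptor CCR10, and MAdCAM-1 on venules binds the integrin alpha4 beta7 of gut-derived lymphocytes. The plasma cell joins IgA units through the J chain, and the polymeric immunoglobulin receptor of the epithelium, encoded by Pigr, carries the polymer across the cell and releases it into milk with a cleaved piece of the receptor.

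Values are FPKM, fragments scaled to gene length and to library depth, so they can be set side by side between genes. The order by mean over the 10 libraries was Pigr (523.6), Ccl28 (115.8), Igha (29.6), Jchain (13.7), Madcam1 (7.88), Fcgrt (7.03), Tnfsf13b (1.46) and Mzb1 (1.43). The ranges of neighbours in this order overlapped except between Pigr and Ccl28 and between Fcgrt and Tnfsf13b. Pigr ranked 68 among all genes in the table, and Ccl28 ranked 313.

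Whether these transcripts differed 12 h after endotoxin was asked by setting the 5 LPS glands against the 5 PBS glands. None of the 8 genes was called at a limma adjusted p below 0.05, where 3.23% of the 11414 tested genes were called. At an unadjusted p below 0.05, 0 of the 8 passed, where 16.5% of tested genes passed, and edgeR and DESeq2 on reads recovered from the FPKM also called 0 of 8, where they called 3.83% and 7.41% of tested genes, with 0 of the 8 at an unadjusted p below 0.05, where 17.9% and 18.5% of tested genes passed. DESeq2 gave no adjusted p for Mzb1 and Tnfsf13b. The group means were lower in LPS glands for 7 of the 8 on the log2(FPKM + 1) scale, where 38.6% of all tested genes were lower. The 2 groups overlapped for all 8 genes, and 4.75% of tested genes had groups that did not overlap. The median log2 difference of the 8 was -0.15, beside 0.05 over all tested genes. None of the 8 is in the authors' deposited table of 908 genes with an adjusted p below 0.05.

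**Figure D1:**
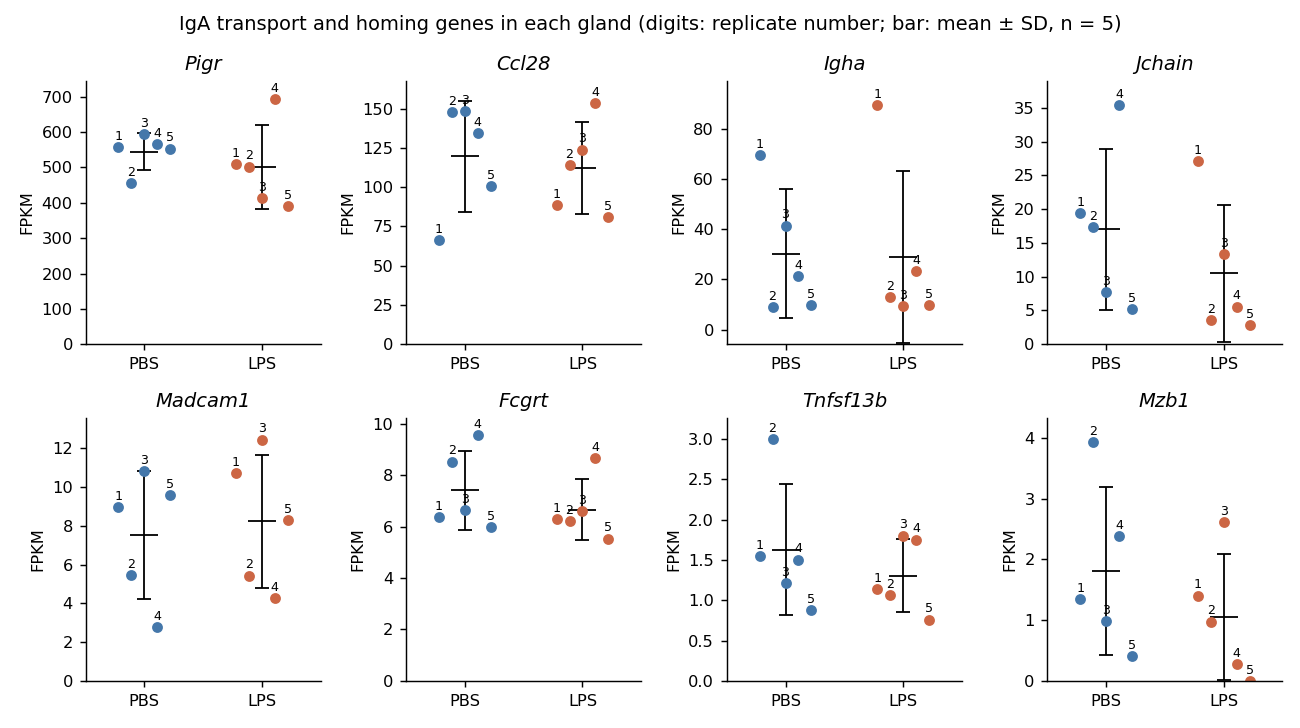
FPKM (y axis) of each gene in the 5 PBS and 5 LPS glands (x axis), with 1 point per gland, its replicate number above it, and the mean ± SD as a bar. Pigr stays between 391.8 and 693.6 FPKM, while Igha runs from 8.83 to 89.5 FPKM with both groups overlapping.

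The stretches just before the starts of 3 of these genes are shown because they hold matches to motifs of factors that LPS or epithelial differentiation engages. The 250 bases upstream of the RefSeq starts (build GRCm38.p6, the same assembly as mm10) were searched on both strands in the 6 of the 8 genes for which a sequence was held, with 2 starts for Tnfsf13b. The motifs were the 10-base kappaB motif of NF-kB, the STAT motif TTCNNNGAA, the 10-base core of the interferon response element, the E-box CACGTG and the octamer ATGCAAAT of B cell genes. Capitals mark matches, and no match overlapped another.
Madcam1, chr10:79664309-79664558, plus strand: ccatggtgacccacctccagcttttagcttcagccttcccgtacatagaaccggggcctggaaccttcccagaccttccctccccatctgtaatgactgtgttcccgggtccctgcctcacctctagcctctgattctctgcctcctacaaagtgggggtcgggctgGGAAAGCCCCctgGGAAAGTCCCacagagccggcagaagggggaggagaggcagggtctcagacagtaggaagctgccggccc
Pigr, chr1:130826434-130826683, plus strand: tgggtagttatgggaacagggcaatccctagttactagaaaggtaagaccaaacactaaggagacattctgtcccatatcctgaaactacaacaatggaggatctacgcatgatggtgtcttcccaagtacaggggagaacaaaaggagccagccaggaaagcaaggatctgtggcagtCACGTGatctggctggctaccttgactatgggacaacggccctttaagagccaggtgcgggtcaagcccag
Tnfsf13b second start, chr8:10006383-10006632, plus strand: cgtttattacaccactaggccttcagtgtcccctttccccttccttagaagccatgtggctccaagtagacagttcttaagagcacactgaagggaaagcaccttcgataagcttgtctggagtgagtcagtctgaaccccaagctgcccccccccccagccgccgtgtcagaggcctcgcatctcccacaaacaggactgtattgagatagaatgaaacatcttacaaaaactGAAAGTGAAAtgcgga

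Madcam1 had 2 kappaB matches, from 83 to 74 and from 70 to 61 bases before its start, a motif present in 3.9% of 32817 promoter windows of the same length. Pigr had 1 E-box, from 71 to 66 bases before its start, where 6.02% of windows had one. The second start of Tnfsf13b had 1 interferon response core, from 16 to 7 bases before it, where 2.97% of windows had one. Ccl28, Jchain, Fcgrt and the first start of Tnfsf13b had no match to these 5 motifs in this window. The matches are a description of sequence, and none of these 3 genes was called in LPS glands.

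Igha encodes the heavy chain constant region of IgA (ENSMUSG00000095079, chromosome 12, 113254830 to 113260236, minus strand, build mm10). In PBS replicates 1 to 5 it was at 69.6, 8.83, 41.4, 21.3 and 9.79 FPKM, and in LPS replicates 1 to 5 at 89.5, 13.1, 9.39, 23.4 and 9.76 FPKM. The highest library of each group carried replicate number 1, and the other libraries of both groups overlapped. The group means were 30.2 ± 25.7 (SD, n = 5) and 29.0 ± 34.3 FPKM. The log2 difference was -0.21 ± 0.64 (SE, limma adjusted p = 0.927), and its 95% interval was 0.329 to 2.28-fold. This and the other intervals below are folds of FPKM + 1, which are closer to 1 than folds of FPKM for genes of low level.

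Jchain encodes the J chain that links the units of polymeric IgA and IgM (ENSMUSG00000067149, chromosome 5, 88519809 to 88527891, minus strand). It was at 19.4, 17.4, 7.68, 35.4 and 5.16 FPKM in PBS replicates 1 to 5 and at 27.1, 3.60, 13.3, 5.58 and 2.88 FPKM in LPS replicates 1 to 5. PBS replicate 4 and LPS replicate 1 were highest, and LPS replicates 2 and 5 lay below all PBS glands. The log2 difference of -0.79 ± 0.57 had a limma adjusted p of 0.550 and a 95% interval of 0.247 to 1.36-fold. Its size depended on single libraries: it was -1.22 without LPS replicate 1 (limma adjusted p = 0.224), -0.47 without PBS replicate 4, -0.50 without LPS replicate 5 and -0.26 without PBS replicates 2 and 4. With library weights it was -1.19 (limma adjusted p = 0.234).

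Mzb1 encodes an endoplasmic reticulum protein of B and plasma cells that helps antibody assembly (ENSMUSG00000024353, chromosome 18, 35647267 to 35649367, minus strand). It rested on few reads: PBS replicates 2 and 4 had 60 and 34, LPS replicate 3 had 41, and the remaining 7 libraries had 0 to 24. In FPKM, PBS replicates 1 to 5 had 1.34, 3.93, 0.980, 2.39 and 0.414, and LPS replicates 1 to 5 had 1.41, 0.975, 2.62, 0.277 and 0. The 3 libraries with most reads came from both groups. The log2 difference was -0.46 ± 0.37 on the log2(FPKM + 1) scale (limma adjusted p = 0.607, 95% interval 0.414 to 1.27-fold of FPKM + 1). At this low level the added 1 decides the size: the ratio of mean FPKM was 0.583, the difference was -1.12 with 0.1 added in place of 1, and edgeR on reads gave -0.81, none of them called. Without PBS replicates 2 and 4 it was -0.014. Of the 3 antibody-side genes, then, none was separated between LPS and PBS glands beyond the spread within a group.

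The glands also differed in which antibody class they held. Igha made up 96.2, 8.16, 85.4, 13.97 and 25.5% of the summed FPKM of the 7 heavy chain constant genes in PBS replicates 1 to 5, and 97.6, 61.3, 15.6, 92.4 and 90.4% in LPS replicates 1 to 5. Glands therefore fell at either end, with LPS replicate 2 between them, and both ends were found in both groups. Most of the remainder was Ighm, the heavy chain gene of IgM. PBS replicates 2 and 4 held 93.8 and 123.5 FPKM of it, LPS replicate 3 held 47.5, PBS replicate 5 held 28.4, and the remaining 6 libraries held 0.497 to 7.63 FPKM. The other heavy chain genes in the sum, IgG genes among them, made up 0.632 to 5.66% of it. Ighd and Ighg2a were not part of the sum. The mean IgA share was 45.8 ± 41.7% in PBS and 71.4 ± 34.3% in LPS glands (two-sided exact permutation test, n = 5 per group, p = 0.317, adjusted p = 0.317 over 2 such tests). Without PBS replicates 2 and 4 the difference of 25.6 percentage points became 2.43, and without these and LPS replicates 2 and 3 it was 24.4. With 1 library left out it ranged from 16.2 (without PBS replicate 2) to 39.6 percentage points (without LPS replicate 3), with exact permutation p from 0.111 to 0.548.

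B cell transcripts moved with the IgM-rich libraries. The summed FPKM of 5 B cell markers (Cd79a, Cd79b, Ms4a1, Cd22 and Pax5) was 34.1, 15.04 and 15.8 in PBS replicates 2 and 4 and LPS replicate 3, 4.40 in LPS replicate 2, and 0.198 to 0.423 in the other 6 libraries, where up to 2 of the 5 were at 0. It ranged from 0.280 to 34.1 over PBS and from 0.198 to 15.8 over LPS glands. Of the B cell markers, Cd79a and Cd79b were the highest on average, and 0 of 5 passed the filter of the test. Ccl21a, a lymph node chemokine gene, reached 66.9 FPKM in the second PBS replicate, 27.2 in the fourth and 4.85 in the third LPS replicate, against 0 to 0.746 FPKM elsewhere. The 6 T cell markers summed to 45.98, 23.2 and 13.0 FPKM in the same 3 libraries and to 0.443 to 3.35 FPKM elsewhere, with Trbc2, a T cell receptor constant gene, the highest of them. The part of these cells in the antibody values was not tested, and in whole glands fewer cells of a type cannot be told apart from less RNA per cell. PBS replicate 5 differed from the other IgM-rich libraries, with 73.9% of its heavy chain FPKM in Ighm and a B cell marker sum of only 0.280 FPKM.

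**Figure D2:**
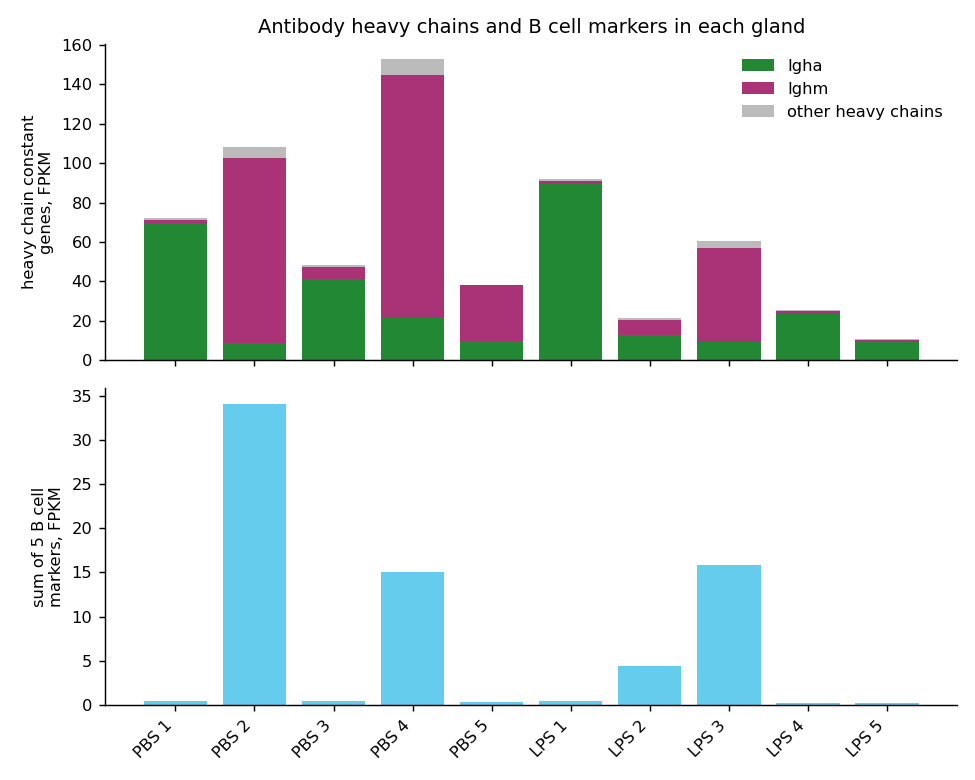
Summed FPKM of heavy chain constant genes split into Igha, Ighm and all others (upper y axis) and summed FPKM of 5 B cell markers (lower y axis) in each gland (x axis). PBS replicates 2 and 4 and LPS replicate 3 combine 78.8 to 86.7% Ighm with marker sums of 15.04 to 34.1 FPKM.

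Over the 10 libraries together, Jchain varied less relative to the sum of both polymer-forming classes than relative to Igha. Jchain per Igha ran from 0.186 to 1.97, a range of 10.6-fold over the 10 libraries, while Jchain per summed Igha and Ighm ran from 0.135 to 0.299, a range of 2.21-fold. Igkc, the constant gene of the kappa light chain, which pairs with any heavy chain class, varied still less, at 1.63 to 2.45 per summed Igha and Ighm (1.504-fold) against 1.82 to 22.4 per Igha (12.3-fold). The wide range of Jchain per Igha came from PBS replicates 2, 4 and 5 and LPS replicate 3, at 1.97, 1.66, 0.527 and 1.42. In the other libraries Jchain ran from 0.186 to 0.303 per Igha and from 0.163 to 0.299 per summed Igha and Ighm, so it varied no less against the sum there. With the group means removed, the Pearson r over the 10 libraries was 0.96 between Jchain and Igkc, 0.48 between Jchain and Igha, and -0.64 between Igha and Ighm. These coefficients describe libraries that share depth and tissue composition and carry no test. Igkc itself was at 166.8 ± 104 FPKM in PBS and 92.6 ± 82.5 FPKM in LPS glands (limma adjusted p = 0.392), and Ighm at 50.6 ± 55.0 and 11.7 ± 20.2 FPKM (limma adjusted p = 0.383).

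**Figure D3:**
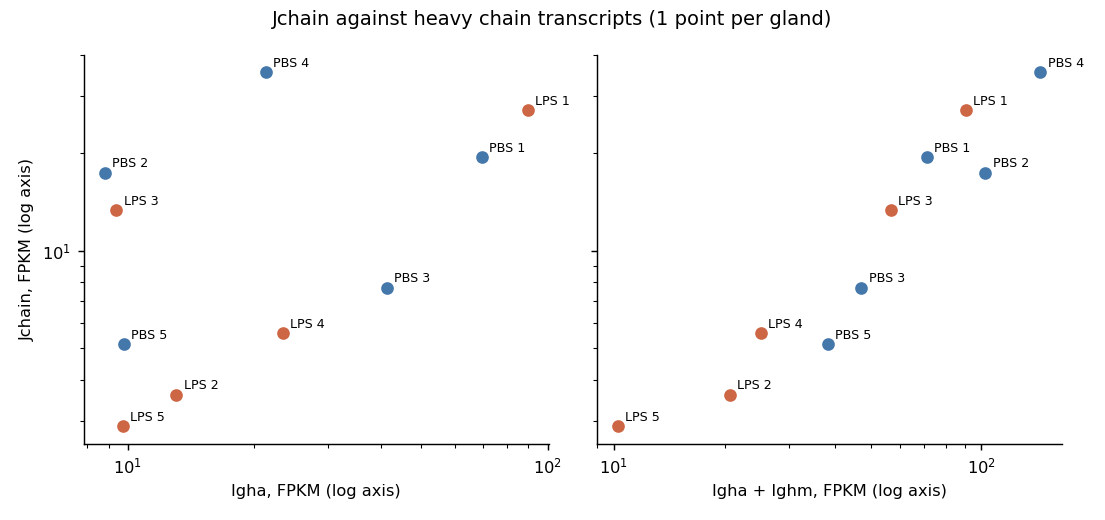
Jchain FPKM (y axis) against Igha FPKM (left x axis) and against summed Igha and Ighm FPKM (right x axis), all on log axes, with 1 labelled point per gland. The ratio spans 10.6-fold on the left, where it is highest in PBS replicates 2, 4 and 5 and LPS replicate 3. On the right it spans 2.21-fold.

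The r of Mzb1 with Igha was -0.04, with Jchain 0.72, with Ighm 0.66 and with Igkc 0.80, on the same measure. Mzb1 per Jchain was highest in LPS replicate 2, PBS replicate 2 and LPS replicate 3, at 0.271, 0.226 and 0.197, and was 0 to 0.128 in the other 7.

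Pigr encodes the receptor that carries polymeric IgA and IgM into milk (ENSMUSG00000026417, chromosome 1, 130826684 to 130852249, plus strand). In PBS replicates 1 to 5 it was at 556.9, 455.5, 594.2, 565.05 and 553.4 FPKM, and in LPS replicates 1 to 5 at 510.1, 502.5, 413.3, 693.6 and 391.8 FPKM. Of the PBS glands 4 lay within 553.4 to 594.2 FPKM, whereas the LPS glands spread to both sides of them. The means were 545.0 ± 52.6 and 502.3 ± 119 FPKM. The log2 difference of -0.14 ± 0.15 had a limma adjusted p of 0.712, and the 95% interval was 0.727 to 1.13-fold.

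Relative to 6 epithelial markers (Epcam, Krt8, Krt18, Krt19, Cdh1 and Elf5), Pigr was lower in most LPS glands, without passing the test. The log2 ratio of Pigr to their mean was 2.28, 1.99, 2.40, 2.41 and 2.26 in PBS replicates 1 to 5 and 2.06, 1.75, 1.79, 2.38 and 1.54 in LPS replicates 1 to 5. LPS replicate 4 lay among the PBS glands, LPS replicate 1 just above the lowest PBS gland, and the other 3 LPS glands below all PBS glands. The difference of -0.36 had a p of 0.0714 in a two-sided exact permutation test (adjusted p = 0.143; the smallest p possible is 0.00794). It passed unadjusted without LPS replicate 4 (difference -0.48, exact permutation p = 0.0238) and without PBS replicate 2 (-0.43, exact permutation p = 0.0476). Without LPS replicate 5 it was -0.27 (exact permutation p = 0.119), the smallest of the 10 such differences. Krt8, a keratin of luminal epithelium, rose from 129.5 ± 14.2 to 188.4 ± 34.6 FPKM (log2 difference 0.53, limma adjusted p = 0.0445), a call lost in 16 of 24 alternative settings. Of the other markers, Krt18 was at 138.0 ± 15.4 and 172.0 ± 14.5 FPKM (limma adjusted p = 0.113) and Cdh1, the E-cadherin gene, at 32.4 ± 3.99 and 46.4 ± 10.5 FPKM (limma adjusted p = 0.105). The remaining markers moved little, with log2 differences of 0.077 for Epcam, -0.00092 for Krt19 and -0.074 for Elf5. The markers as well as Pigr, with its own difference of -0.14, enter the ratio, so its size depends on the markers taken. With the keratins left out of the markers the ratio differed by -0.30.

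Of 18 regulators of Pigr transcription, 1 was called higher and 0 lower, where 3.23% of all tested genes were called. It was Ifngr1, a chain of the interferon gamma receptor, which rose from 85.4 ± 6.99 to 115.7 ± 12.5 FPKM (log2 difference 0.43, limma adjusted p = 0.0308), a call lost in 16 of 24 alternative settings. At an unadjusted p below 0.05, 7 of the 18 passed, all of them higher, where 16.5% of all tested genes passed. The median log2 difference of the 18 was 0.16. Of 12 tested genes of epithelial transcytosis, which move vesicles from the basal to the milk side, 0 were called (2 at an unadjusted p below 0.05; median 0.04). Ap1m2, an adaptor subunit of polarized epithelium, was at 46.8 ± 3.36 and 50.5 ± 5.03 FPKM, and Cltc, the clathrin heavy chain, at 45.8 ± 5.17 and 45.9 ± 8.72 FPKM.

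Fcgrt encodes the heavy chain of FcRn, which carries IgG across epithelia and protects it from breakdown (ENSMUSG00000003420, chromosome 7, 45092990 to 45103851, minus strand). It was at 6.36, 8.53, 6.63, 9.54 and 5.97 FPKM in PBS replicates 1 to 5 and at 6.28, 6.22, 6.62, 8.65 and 5.53 FPKM in LPS replicates 1 to 5. Replicate 4 was highest and replicate 5 lowest in each group. The log2 difference was -0.13 ± 0.14 (limma adjusted p = 0.726), with a 95% interval of 0.743 to 1.13-fold. Its partner B2m, beta-2 microglobulin, which also serves MHC class I, was at 892.0 ± 125 and 1122 ± 235 FPKM (log2 difference 0.32, limma adjusted p = 0.319). B2m was 96.6 to 217.9 times as abundant per length as Fcgrt. Of the 7 tested IgG receptors and FcRn partners 0 were called (1 at an unadjusted p below 0.05; median 0.23), and Fcer1g, a signalling chain of Fc receptors, was at 18.5 ± 5.42 and 18.9 ± 5.97 FPKM.

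Ccl28 encodes the chemokine that attracts CCR10-bearing plasma cells (ENSMUSG00000074715, chromosome 13, 119623819 to 119654359, plus strand). It was at 66.05, 147.7, 148.5, 134.5 and 100.8 FPKM in PBS replicates 1 to 5 and at 88.3, 114.1, 123.9, 153.4 and 80.9 FPKM in LPS replicates 1 to 5. PBS replicate 1, which had the most Igha of the PBS glands, had the least Ccl28. Among LPS glands the least Ccl28 was in replicate 5, with Igha at 9.76 FPKM, and not in replicate 1, which had the most Igha. The r between the 2 genes was -0.35 over the 10 libraries. The log2 difference of Ccl28 was -0.07 ± 0.23 (limma adjusted p = 0.932, 95% interval 0.675 to 1.35-fold). Its receptor gene Ccr10 was at 0.0724 to 0.584 FPKM over the 10 libraries, highest in PBS replicates 2 and 4, and did not pass the filter of the test.

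Madcam1 encodes the adhesion molecule of mucosal and mammary venules (ENSMUSG00000020310, chromosome 10, 79664559 to 79668537, plus strand). It was at 8.96, 5.47, 10.8, 2.77 and 9.59 FPKM in PBS replicates 1 to 5 and at 10.7, 5.44, 12.5, 4.28 and 8.31 FPKM in LPS replicates 1 to 5. In both groups the libraries numbered 2 and 4 were the lowest, at 2.77 to 5.47 FPKM, and those numbered 1, 3 and 5 were at 8.31 to 12.5 FPKM. The log2 difference between LPS and PBS glands was 0.14 ± 0.32 (limma adjusted p = 0.893, 95% interval 0.677 to 1.80-fold), and it was -0.05 when FPKM were rescaled to the sum outside milk proteins. That rescaling moved the median of all tested genes from 0.05 to -0.13.

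The same pattern by number appeared in the next genes along chromosome 10, which were named after their values were seen. Of all tested genes outside predicted genes, pseudogenes and antibody segments, Tpgs1, separated from the end of Madcam1 by 831 bases, had the highest r with it (0.95), and Cdc34, a ubiquitin-conjugating enzyme gene further along, the next but one (0.91). Tpgs1, which encodes a subunit of tubulin polyglutamylase, was at 5.06 to 6.24 FPKM in the 4 libraries numbered 2 and 4 and at 9.11 to 13.2 FPKM in the 6 others. Cdc34 was at 52.9 to 62.6 FPKM in those 4 and at 83.4 to 124.6 FPKM in the 6 others. Bsg, the fourth tested gene within 50000 bases of Madcam1, did not divide in this way, with 107.9 to 143.6 FPKM against 108.3 to 137.2 FPKM. The labels do not say what libraries of the same number share.

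**Figure D4:**
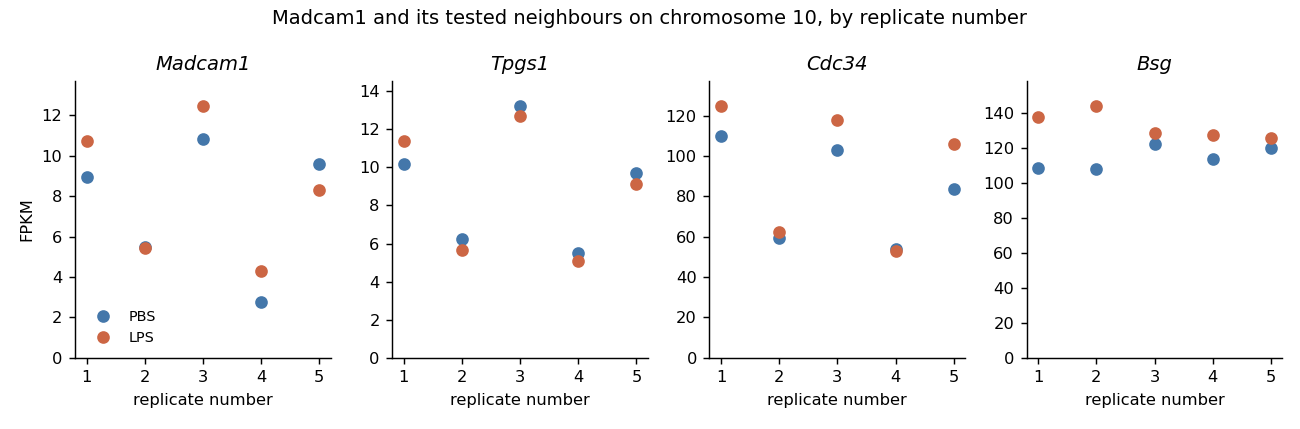
FPKM (y axis, from 0) of Madcam1, Tpgs1, Cdc34 and Bsg against replicate number (x axis), with 1 point for the PBS and 1 for the LPS gland of each number. Numbers 2 and 4 are low in both groups for the first 3 genes (Madcam1 2.77 to 5.47 FPKM) and not for Bsg.

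Of 7 tested genes among the other homing ligands and receptors, 0 were called (1 at an unadjusted p below 0.05; median 0.13). Vcam1, an endothelial ligand of alpha4 integrins, was at 2.53 ± 1.32 and 3.11 ± 1.63 FPKM. Itgb1, the integrin beta1 chain, was at 84.1 ± 3.05 and 102.7 ± 13.9 FPKM (limma adjusted p = 0.158), and S1pr1, a receptor for lymphocyte exit that endothelium also expresses, at 7.37 ± 2.52 and 7.34 ± 2.27 FPKM. Itgb7, the beta7 chain that pairs with alpha4 to bind MAdCAM-1, did not pass the filter and was highest in PBS replicates 2 and 4, at 7.34 and 3.21 FPKM. Endothelial markers, which bear on a venule gene, had 0 of 6 called (0 at an unadjusted p below 0.05; median -0.01) and summed to 42.5 to 58.0 FPKM in PBS and 36.8 to 55.4 FPKM in LPS glands, with Pecam1 at 20.6 ± 3.94 and 21.0 ± 2.02 FPKM and Cdh5 at 15.6 ± 1.24 and 16.1 ± 3.54 FPKM.

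Tnfsf13b encodes BAFF, a survival factor of B cells (ENSMUSG00000031497, chromosome 8, 10006467 to 10039072, plus strand). It was at 1.55, 3.00, 1.21, 1.503 and 0.873 FPKM in PBS replicates 1 to 5 and at 1.14, 1.07, 1.80, 1.75 and 0.761 FPKM in LPS replicates 1 to 5, from 12 to 47 reads. PBS replicate 2, the library richest in B cell markers, was the highest. The log2 difference was -0.16 ± 0.20 (limma adjusted p = 0.767, 95% interval 0.663 to 1.20-fold), and without PBS replicate 2 it was 0.0015. Tnfsf13, the gene of the related plasma cell factor APRIL, was more abundant and less variable, at 4.85 ± 0.580 and 4.81 ± 1.14 FPKM (limma adjusted p = 0.957). Of the 4 tested switch and survival factors 0 were called (1 at an unadjusted p below 0.05; median 0.00), and Tgfb1, a cytokine that directs switching to IgA, was at 15.6 ± 1.90 and 17.2 ± 2.67 FPKM. Tnfrsf17, which encodes the plasma cell receptor BCMA, was at 0 in 7 of the 10 libraries and at most 0.145 FPKM.

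Among 11 tested plasma cell genes 1 was higher and 0 lower (median -0.13), where 3.23% of all tested genes were called. At an unadjusted p below 0.05, 2 of the 11 passed, where 16.5% of all tested genes passed. Sdc1, the syndecan-1 gene, which marks plasma cells and is also made by epithelium, rose from 15.3 ± 3.16 to 36.7 ± 7.499 FPKM (log2 difference 1.21 ± 0.16, limma adjusted p = 0.00275). Every LPS gland, from 28.6 to 48.3 FPKM, was above every PBS gland, from 11.3 to 19.7 FPKM. Igha, Jchain and Mzb1 did not show that separation in the same glands. Derl3, the other plasma cell gene that passed unadjusted, went the other way, at 11.8 ± 5.01 and 6.21 ± 3.11 FPKM. Its log2 difference was -0.84 (limma adjusted p = 0.209), and its groups overlapped. Derl3 did not follow the antibody-side genes in every gland. PBS replicate 5 had the most Derl3 (17.4 FPKM) but the least Jchain and Mzb1 of the PBS glands (5.16 and 0.414 FPKM). PBS replicate 4 had 14.7 FPKM of Derl3 and the most Jchain, 35.4 FPKM. Xbp1, a transcription factor of secretory cells that lactating epithelium also expresses, was at 462.2 ± 68.8 and 414.7 ± 68.6 FPKM (limma adjusted p = 0.631). The plasma cell marker list shares Sdc1 and Xbp1 with epithelium, and 3 of its 6 genes were tested. The 11 tested plasma cell genes also include Hspa5, at 350.5 ± 72.4 and 331.9 ± 104 FPKM, far above Jchain and Mzb1. Which cells made the transcripts of this list was not tested.

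Of all 11414 tested genes 3.23% were called, 300 of them higher and 69 lower. Over all lists around the 8 genes, markers of other cell types included, 91 of 139 genes were tested, of which 7 were higher and 0 lower. Besides Sdc1, Ifngr1 and Krt8 these were 4 of 5 tested neutrophil markers: S100a9 and S100a8, which encode calprotectin, with log2 differences of 4.63 and 3.11, Csf3r, the G-CSF receptor gene, with 1.34 (limma adjusted p = 0.0344), and Cxcr2, a chemokine receptor gene, with 1.19 (limma adjusted p = 0.0475). The calls of S100a8 and S100a9 held in all 24 alternative settings, that of Csf3r in 12 of 24 and that of Cxcr2 in 7 of 23. The 6 neutrophil markers summed to 704.3 to 1867 FPKM in PBS and 7363 to 14187 FPKM in LPS glands, a sum made up mostly of S100a8 and S100a9. In PBS glands S100a8 was at 873.1 ± 355 FPKM beside Csf3r at 2.76 ± 0.594 FPKM. LPS replicate 1, with the largest sum, had the lowest Csf3r and Cxcr2 of the LPS glands, at 3.93 and 1.67 FPKM. The sum is thus no measure of neutrophil number, and which cells made S100a8 and S100a9 was not tested. Mmp9, the tested neutrophil marker that was not called, overlapped between groups, at up to 4.35 FPKM in PBS and from 2.59 FPKM in LPS glands. Macrophage markers had 0 of 5 called (0 at an unadjusted p below 0.05; median -0.44; C1qa 29.9 ± 12.2 and 19.6 ± 6.22 FPKM, C1qb 20.4 ± 7.19 and 14.5 ± 4.49 FPKM) and adipocyte markers 0 of 6 (0 at an unadjusted p below 0.05; median 0.00; Fabp4 573.0 ± 127 and 552.6 ± 122 FPKM, Cfd 380.5 ± 134.9 and 389.4 ± 121 FPKM). The 6 lymph node stroma markers had 1 tested gene, Cxcl13, at 79.5 ± 36.6 and 48.1 ± 21.3 FPKM (limma adjusted p = 0.407), and T cell markers likewise 1, Trbc2, at 6.76 ± 8.83 and 1.70 ± 2.56 FPKM.

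**Figure D5:**
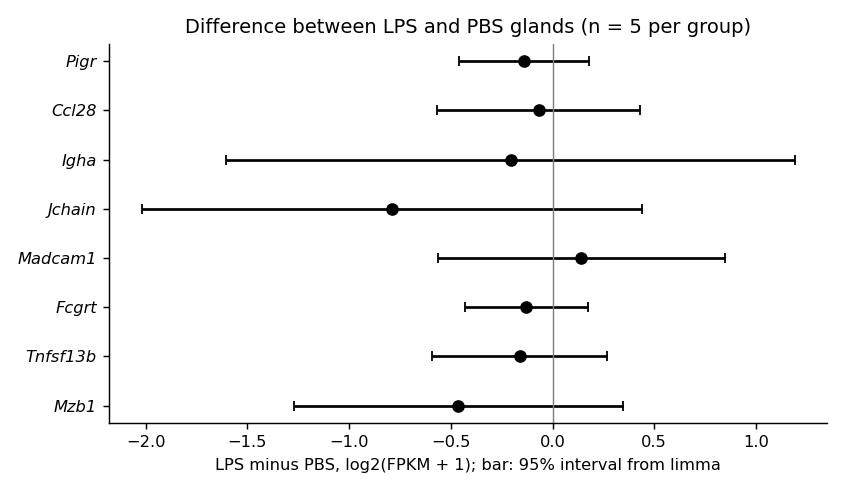
Difference of LPS from PBS glands on the log2(FPKM + 1) scale (x axis) for each of the 8 genes (y axis), with the 95% interval from limma as a bar and 5 glands per group. Every interval crosses 0; those of Fcgrt and Pigr are the narrowest, and that of Igha, from -1.60 to 1.19, is the widest.

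By the same measure of likeness, Pearson r over 10 libraries after removing group means, the nearest tested genes were listed for 5 of the members. As for Madcam1, predicted genes, pseudogenes and antibody segments were left out of the search, so no antibody segment could appear. Each r is among the highest over all genes searched and carries no test. They were Znrd1as (0.97), Ly6g6e (0.94) and Ctsl (0.92) for Igha, Naca (0.98), Hsd17b10 (0.97) and Adipoq (0.96) for Jchain, and Arpc1a, Smim8 and Fopnl (each 0.98) for Mzb1. For Pigr they were Tkt (0.96), Golph3l (0.95) and Copb1 (0.93), and for Ccl28 Ttc39a (0.98), Stard8 (0.98) and Arhgef15 (0.97). No gene appeared in the lists of different members, but with only the 3 nearest genes listed for each this says little about the members.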

How the data were processed

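Alignment and counting tools named in the submitters' processing notes are STAR 2.5 and HTSeq 0.6.1, with mouse build mm10 and a DESeq2 version of 2. The FPKM values of all genes were made by the authors and deposited in a table of 35275 genes. A second deposited table gives, for 908 genes, whole read counts per the file headers, a normalized signal that the authors made by dividing counts by 1 size factor per library, and the authors' log2 fold changes and p-values; it served to find depth. Strandedness is not given in the sources used here. Symbols were found for 34490 genes.

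Genes that reached 1 FPKM in 5 or more libraries were tested with limma 3.58.1 in R 4.3.3 (intensity trend, two-sided, Benjamini-Hochberg) on log2(FPKM + 1), a scale that understates changes of low genes. Group was the only term. Whole reads were recovered from FPKM for 23055 of 23059 genes above 0 (tolerance 0.002 reads) for edgeR 4.0.16 (quasi-likelihood) and DESeq2 1.42.0 as alternatives. The IgA share and the Pigr ratio were compared by exact permutation. The limma, edgeR and DESeq2 fits were also run on simulated reads with the same dispersion for every gene. That run does not gauge power for genes as variable between libraries as Igha. Coordinates are those of GENCODE M21 on mm10. The 8 genes and all lists were chosen with earlier results of these data known. Named genes were the 8, up to 4 called genes per list or else the 2 of highest mean, Ighm, Igkc, Cd79a, Tnfsf13, Vcam1, Ccr10, B2m and Xbp1, and for 5 members the 3 nearest genes outside antibody segments and predicted genes. Other names were chosen after their values were seen. Ighg2a had no symbol entry, and Ighd, Iglc1 and Iglc3 were not analysed here. Alternatives were other pseudocounts, filters, scalings, a replicate block, no trend, library weights and leaving out libraries. One B cell marker was left out of its list and is not reported here.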

Additional observations from a re-analysis of the deposited data

Results flagged for a closer look

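Igha in LPS replicate 1, at 89.5 FPKM, lay far above the other 4 LPS glands: its gap to the next was 0.825 of the group's range. Of 20 sets of 5 values examined (the 8 genes, the IgA share and the Pigr ratio, in each group) this was the 1 set past the Dixon outlier cutoff. That cutoff is one that chance passes in about 1 of 20 sets of normal values, and the 20 sets are not independent. PBS replicate 1, of the same number, was the highest PBS gland at 69.6 FPKM.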

How the results depend on the processing

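None of the 8 genes was called under any alternative run. Of 188 alternative values 168 kept the direction and 20 reversed, and the lowest adjusted p was 0.181 (Pigr, rescaled outside milk proteins, where 2 of the 8 had an unadjusted p below 0.05). That rescaling lowered genes in general: the median log2 difference of all tested genes was -0.13, and 348 genes were called lower and 128 higher. The count of 369 called genes became 126 with no filter, 656 with library weights, 846 by DESeq2, 107 without PBS replicates 2 and 4, and 8 without those and LPS replicates 2 and 3 (both chosen after seeing the data), and it ranged from 150 to 517 with 1 library left out. Higher calls were 81.3% of calls, 72.8% with median-of-ratios scaling, 63.6% with quantile normalization and 26.9% when rescaled outside milk proteins. The 7 called genes of the lists became 3 with no filter, 4 with median-of-ratios scaling, 4 with quantile normalization, 3 when rescaled, 12 with library weights, 13 by DESeq2, 3 without the 2 PBS libraries and 2 without the 4 libraries, and ranged from 3 to 11 with 1 left out. With 1 library left out the Pigr ratio ranged from -0.48 to -0.27. The cause of these shifts was not tested.

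With the replicate number as a block, 1229 genes and 22 of the lists (17 higher, 5 lower) were called, and none of the 8 (lowest limma adjusted p 0.300). Among the 5 lower were C1qa (limma adjusted p = 0.0180), C1qb (0.0168) and Cxcl13 (0.00515), which were not called without the block. The correlations of same-numbered libraries were 0.482, 0.362, 0.099, 0.103 and 0.494, and not every library correlated best with its own number, so the numbers were not taken to pair the glands. In exact sign-flip tests over the numbers p was 0.4375 for the IgA share and 0.0625 for the Pigr ratio, which was lower in the LPS gland for 5 of 5 numbers; 0.0625 is the smallest p that 5 numbers allow, so this test could not pass 0.05.

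Uncalled log2 differences that changed sign were as follows. Library weights gave Ccl28 0.012, Cfd -0.081, Cltc 0.076, Fcer1g -0.014 and S1pr1 0.099. Leaving out PBS replicates 2 and 4 gave Ccl28 0.13, Madcam1 -0.31, Fcgrt 0.054, Tnfsf13b 0.049, Fabp4 0.090, S1pr1 0.15, Tnfsf13 0.068 and Trbc2 0.27. Leaving out these and LPS replicates 2 and 3 gave Ccl28 0.049, Madcam1 -0.37, Fcgrt 0.076, Cdh5 -0.027, Fabp4 0.034, Fcer1g -0.026 and Tnfsf13 0.22. Rescaling outside milk proteins gave Madcam1 -0.047, Ap1m2 -0.11, Cdh5 -0.18, Cfd -0.18, Fcer1g -0.17, Pecam1 -0.17 and Tgfb1 -0.073. Quantile normalization gave Ap1m2 -0.019, Cdh5 -0.062, Cfd -0.064, Fcer1g -0.075 and Pecam1 -0.077. Median-of-ratios scaling gave Cdh5 -0.028, Cfd -0.019, Fcer1g -0.024 and Pecam1 -0.018. The edgeR fit gave Cdh5 -0.017, Cfd -0.033, Fcer1g -0.034 and Pecam1 -0.034. The DESeq2 fit gave Cdh5 -0.019, Cfd -0.034, Fcer1g -0.036 and Pecam1 -0.036. With 1 library left out the ranges were -0.74 to 0.19 for Igha, -0.26 to 0.039 for Ccl28, -0.12 to 0.32 for Madcam1, -0.27 to 0.0015 for Tnfsf13b, -0.069 to 0.13 for Cdh5, -0.17 to 0.27 for Cfd, -0.095 to 0.092 for Cltc, -0.19 to 0.069 for Fabp4, -0.13 to 0.14 for Fcer1g, -0.031 to 0.13 for Pecam1, -0.12 to 0.16 for S1pr1 and -0.12 to 0.045 for Tnfsf13.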

Other observations

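PBS replicate 5 was also set apart by its light chains. Of the 103 kappa variable segments in the table, Igkv15-103 alone made up 77.2% of their summed FPKM in this gland (48.1 FPKM, 267 reads), while it was at 0 to 1.83 FPKM in the other 9 libraries. In those 9, the most abundant kappa segment made up 7.23 to 22.2% of the sum. The segment with the highest FPKM was Igkv6-15 in both libraries numbered 1 (13.1 and 14.5 FPKM) and Igkv5-43 in both numbered 2 (39.1 and 2.70 FPKM), and Igkv10-96 in both numbered 3 (7.498 and 8.83 FPKM). It differed between the 2 libraries numbered 4 and between the 2 numbered 5. How reads shared by related segments were counted is not given in the sources used here, so the values of single segments are uncertain.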
